A study of Mus musculus with 2 samples.

Results

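The chromatin around 4 Krüppel-like factor genes (Klf2, Klf3, Klf6 and Klf13) and 3 receptor genes of lymphocyte traffic (S1pr1, S1pr4 and Ccr7) was described in mouse regulatory T (Treg) cells with and without transketolase (Tkt). The genes were taken as a named set, and their peaks were the rows of both deposited ATAC-seq peak lists whose assigned gene was 1 of the 7. This gave 47 of 34440 peaks in the wild-type (WT) list and 32 of 19680 peaks in the knockout (cKO) list. ATAC-seq marks open chromatin by where the Tn5 transposase can insert into it, and a peak is a stretch in which the caller found more insertions than its background. Both libraries came from untreated female C57BL/6 mice aged 7 weeks. The WT library was made from Foxp3cre/+ mice and the cKO library from Foxp3cre/+ TKTfl/fl mice, so the Cre allele was shared by both groups. In each, 50000 CD4+CD25+YFP+ cells of spleen and lymph node were sorted, YFP marking cells with an active Foxp3-driven Cre. Foxp3 is X-linked, so in females with a single Cre allele only a part of the Treg cells carries an active Cre, and the labels call these mice chimeric. There was 1 library per genotype, and how many mice went into each is not given in the sources used here. Every difference below is therefore between 2 libraries, has no replicate check and carries no p-value.

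Krüppel-like factors are zinc-finger proteins that bind CACCC and GC-rich boxes. Klf2 keeps naive and resting T cells in circulation by driving S1pr1 and the lymph node homing genes, and it lies downstream of the FOXO factors. Klf3 is mainly a repressor that competes for the same boxes, Klf6 is a widely expressed activator induced by stimuli, and Klf13 was described as a regulator of the chemokine gene Ccl5 in T cells. S1pr1 encodes the sphingosine 1-phosphate receptor with which T cells leave lymph nodes, S1pr4 a related receptor of lymphoid and myeloid cells, and Ccr7 the chemokine receptor with which they enter lymph nodes and reach the T cell zone.

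Across the 2 lists, 19313 WT peaks (56.1%) overlapped a cKO peak by at least 1 bp, and 19216 cKO peaks (97.6%) by a WT peak. Sequencing depth is unknown, and the cKO list is the shorter one, so loss of accessibility and fewer usable reads cannot be told apart for a WT peak without a cKO partner. Of 7 markers of Treg and T cells, 6 had an assigned peak in both libraries, Foxp3, Il2ra, Ctla4 and Ikzf2 among them. The other, Tnfrsf18, had none in either. Klf2 and S1pr1 are also strongly used in endothelial cells. Of 6 endothelial markers, Cdh5, Tek, Kdr and Sox17 had no assigned peak in either library. Pecam1, which T cells also express, had 7 WT peaks and Cldn5 had 1. Among B cell, myeloid, CD8 T and NK, and erythroid markers, Cd79a, Cd8b1, Eomes and Klf1 had 1 peak in each library, Spi1 1 in WT alone, and Lyz2 and Gata1 1 in cKO alone. The part of such cells in the results was not tested. Tkt, the targeted gene, had 1 promoter peak in each library, which checks no genotype because the position of the floxed segment is not given.

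All 7 genes had at least 1 WT peak that was also open in the knockout library, against 72.0% of the 19215 genes with a WT peak. That share is not matched on the number of peaks per gene. A gene with many peaks, such as Ccr7 with 14, has more occasions to share 1. Together 31 of their 47 WT peaks had a cKO partner (66.0%, Wilson 95% interval 51.7 to 77.8), an interval that includes the background of 56.1%. In the other direction all 32 cKO peaks lay on a WT peak, near the background of 97.6%, and a count of 0 peaks without a partner among 32 allows a share of up to 9.38%. The 4 KLF genes shared 16 of 24 WT peaks (66.7%) and the 3 receptor genes 15 of 23 (65.2%). By gene, Klf2 shared 7 of 8, Klf3 5 of 9, Klf6 1 of 2, Klf13 3 of 5, S1pr1 5 of 8, S1pr4 its only peak and Ccr7 9 of 14. These intervals cover counting error only, and neighbouring peaks of a gene are not independent.

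**Figure D1:**
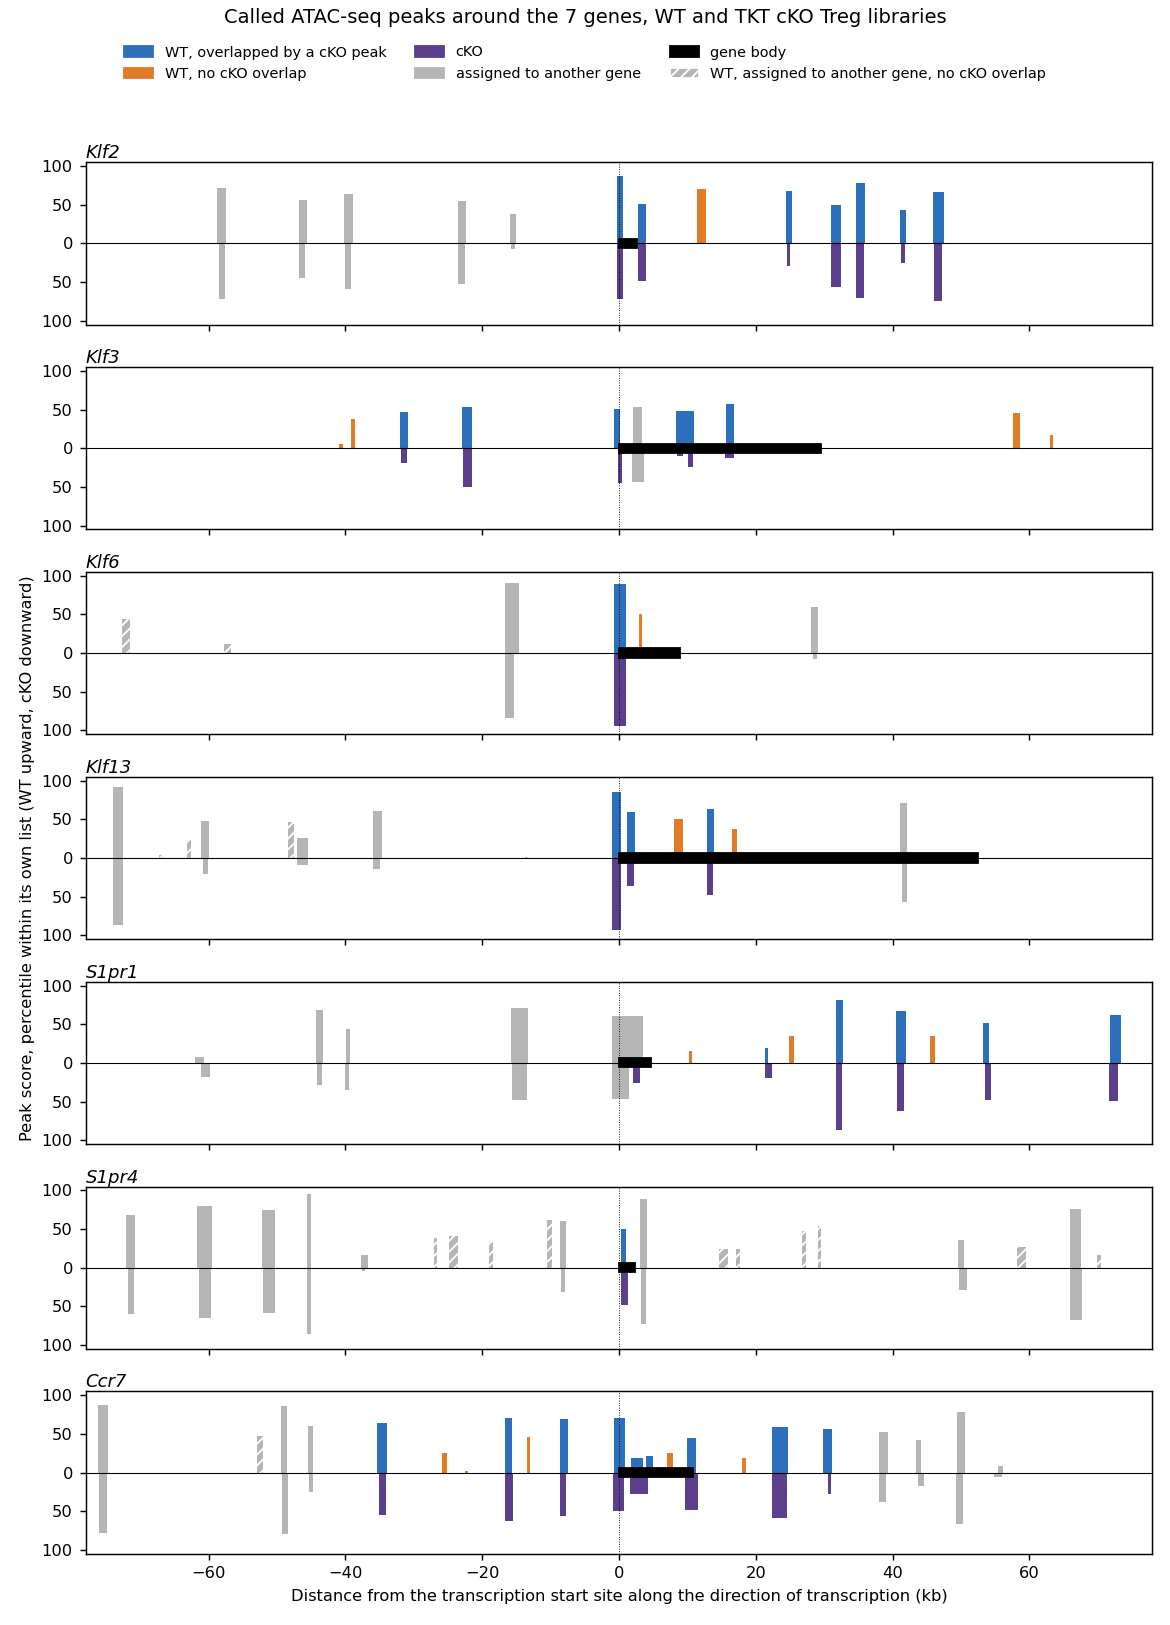
Peaks within 75 kb of the start site of each of the 7 genes, with the distance along the direction of transcription (kb) on the x axis. Bar height is the score percentile within the peak's own list, WT upward and cKO downward, and bar width is the peak width. Blue and purple mark WT and cKO peaks of the 7 genes, grey marks peaks assigned to other genes (hatched without a cKO overlap) and black bars are gene bodies. The orange bars are the 16 WT peaks of the 7 genes without a cKO overlap, while all 66 cKO peaks in these windows lie on a WT peak.

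Klf2, on the plus strand of chromosome 8, had its strongest WT peak over the transcription start site (TSS). The WT peak spanned 72318673 to 72319582. Its cKO partner began at 72318730 and had the same end. Scores were compared only by their percentile, the share of the peaks in the same list that scored no higher. By that measure the promoter peak stood at 87.2 in WT and 72.6 in cKO. The lists differ in length, so such WT and cKO percentiles, for this and the following genes, show no change when set side by side. A ranking of the same regions in both libraries follows further below. A peak of 1166 bp began 175 bp past the 3′ end of the gene in WT, at percentile 51.5, and its cKO partner stood at 48.2. Both were given the promoter class by the authors' annotation, which reaches 3 kb from a TSS, although they lay outside the gene on its downstream side.

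Downstream of Klf2 a row of 5 shared peaks lay in introns 21, 22 and 23 of the neighbouring gene Eps15l1, between 24440 and 47453 bp from the Klf2 TSS in WT. Their WT percentiles were 67.2, 50.1, 77.5, 43.4 and 65.9 in order of distance, and those of their cKO partners were 29.7, 57.0, 70.6, 25.1 and 74.9. In the cKO library the farthest of them, 46031 to 47293 bp from the TSS, thus stood above the Klf2 promoter peak, whereas in WT the promoter peak was the highest of the gene. All 5 were narrower in cKO, at 475, 1488, 1224, 556 and 1263 bp against 822, 1587, 1306, 884 and 1538 bp in WT. Over the whole lists, shared WT peaks had a median width of 1213 bp and cKO peaks, nearly all shared, one of 974 bp. Narrower cKO peaks are thus not particular to this row. The authors' assignment goes to the nearest TSS, so it says nothing about which gene these regions serve.

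The only Klf2 peak without a cKO partner lay in the gap between the gene and this row, 11425 to 12694 bp downstream of the TSS, at 72330458 to 72331727. It was 1270 bp wide and stood at percentile 70.9 of the WT list. Of all WT peaks in its score bin (10 bins of equal size per list) 94.7% had a cKO overlap, and among the 10009 WT peaks with a higher score 211 had none. The nearest cKO peak was 7524 bp away. The region was the strongest unshared peak of the 7 genes.

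Klf3 lies on the plus strand of chromosome 5 and had 9 WT and 6 cKO peaks, none above percentile 57.0 in WT. Its TSS peak reached from 735 bp before to 167 bp after the start in WT, but from 113 bp before to 390 bp after it in cKO. The 2 peaks shared 281 bp, 55.8% of the shorter one, the lowest such share among the KLF genes. An internal annotated start site of Klf3 lay under a 2667 bp WT peak at 64811677 to 64814343. In cKO this region was called as 2 peaks of 755 and 739 bp separated by 846 bp, at percentiles 10.1 and 24.0 against 48.4 for the single WT peak. The intronic peak 15686 bp from the first start stood at 57.0 in WT and 12.8 in cKO. The 4 unshared Klf3 peaks were the outermost ones on both sides, from 38567 to 40887 bp upstream and from 57638 to 63509 bp downstream, at WT percentiles between 5.83 and 45.8. Between the outer upstream peaks and the gene, 2 regions 21448 and 30896 bp before the TSS, within an intron of the predicted gene Gm20033, were shared.

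Klf6, on chromosome 13, had the highest score of the set in both libraries. Its promoter peak spanned 5860707 to 5862540 in WT. The cKO peak, 5860761 to 5862547, shared 1780 bp with it. They stood at percentiles 88.8 and 94.2. The other Klf6 peak, 422 bp wide and 2877 bp inside the gene, was called in WT alone. At percentile 50.3 it was 1 of only 2 unshared peaks of the set in the upper part of the WT scores, beside the Klf2 peak described above. It was also narrower than the narrowest peak of the cKO list, which had 465 bp.

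Klf13 is transcribed from the minus strand of chromosome 7, with peaks near 3 annotated start sites. The WT peak over the main TSS, 63938651 to 63939927, stood at percentile 85.4. Its cKO partner, 63938548 to 63939898, stood at 93.4. The peaks next to both internal starts were shared too, at percentiles 59.0 and 63.1 in WT and 35.9 and 48.0 in cKO. Unshared were the peak 8028 to 9307 bp into the gene, at percentile 49.8, and the one 16585 to 17223 bp into it, at 36.9. Each of the 3 starts thus had a called peak within 1 kb in both libraries.

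The sequences before 5 start sites are printed because the called peaks treat them differently: the first 4 lie under a peak in both libraries, and the last, that of S1pr4, under none. They come from the RefSeq promoter windows of build GRCm38.p6 (mm10), which hold 5 of the 7 genes, and each is given 5′ to 3′ on the strand of the gene up to the first annotated start. Capitals mark matches on either strand to CACCC, the KLF box, or CCGCCC, its GC-rich form, which may overlap.
Klf2, chr8:72318812-72319032, plus strand: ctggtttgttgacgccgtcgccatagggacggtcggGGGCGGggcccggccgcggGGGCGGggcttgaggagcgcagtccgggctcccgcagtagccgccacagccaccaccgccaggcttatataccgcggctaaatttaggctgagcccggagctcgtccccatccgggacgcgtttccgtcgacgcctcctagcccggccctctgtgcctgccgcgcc
Klf3, chr5:64803271-64803387, plus strand: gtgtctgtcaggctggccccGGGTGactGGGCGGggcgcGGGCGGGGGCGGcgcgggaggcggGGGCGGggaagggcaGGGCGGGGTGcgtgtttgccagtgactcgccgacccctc
Klf6, chr13:5861239-5861481, plus strand: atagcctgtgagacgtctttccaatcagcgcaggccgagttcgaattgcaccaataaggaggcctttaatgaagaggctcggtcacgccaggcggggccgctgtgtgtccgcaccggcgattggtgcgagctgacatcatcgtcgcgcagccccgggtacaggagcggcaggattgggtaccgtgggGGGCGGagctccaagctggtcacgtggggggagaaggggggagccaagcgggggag
Klf13, chr7:63938916-63939165, minus strand: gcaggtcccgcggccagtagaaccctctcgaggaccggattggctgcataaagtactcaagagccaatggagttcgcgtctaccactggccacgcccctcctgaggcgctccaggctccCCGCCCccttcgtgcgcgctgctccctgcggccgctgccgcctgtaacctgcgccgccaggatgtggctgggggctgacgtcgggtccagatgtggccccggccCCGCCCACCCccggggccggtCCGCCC
S1pr4, chr10:81500138-81500387, minus strand: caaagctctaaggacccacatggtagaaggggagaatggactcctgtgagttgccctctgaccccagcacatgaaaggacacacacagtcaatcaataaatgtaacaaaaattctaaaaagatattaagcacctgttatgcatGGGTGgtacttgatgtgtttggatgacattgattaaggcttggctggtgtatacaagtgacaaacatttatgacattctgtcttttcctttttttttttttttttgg

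The Klf2 stretch of 221 bases, all of it under the promoter peak of either library, held 2 matches to CCGCCC and none to CACCC. The former occurs in 28.7% of all 32851 RefSeq windows cut to the same length, and in 54.0% of the 10408 windows overlapped by a peak in both libraries. Klf3 held 5 matches to CCGCCC and 2 to CACCC within 117 bases. Of these bases all lay under the WT peak and 113 under the cKO peak. Windows of that length held CCGCCC in 12.4% of all cases and 24.4% of those with a peak in both. Klf13 had 3 and 1 matches in 250 bases, where CCGCCC occurs in 32.7% of all windows and 61.7% of those with a peak in both. The Klf6 stretch of 243 bases held 1 match to CCGCCC and none to CACCC. GC content was 71.5% for Klf2, 79.5% for Klf3, 64.2% for Klf6 and 71.6% for Klf13, against a median of 52.4% over all windows. The S1pr4 stretch had 38.8% GC, 0 CpG dinucleotides against 28 in Klf2, and no CCGCCC. Like that of Klf13 it held 1 CACCC, a match found in 52.0% of windows of that length. Neither the FOXO core GTAAACA, present in 3.17% of 250-base windows, nor the ETS core CCGGAAGT (2.88%) occurred in any of the 5. A match is a run of letters, not a bound site.

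S1pr1 lies on the minus strand of chromosome 3 and had 8 WT peaks under its own name, all downstream of the gene. The strongest, 31697 to 32684 bp from the TSS at 115682388 to 115683375, stood at percentile 81.5 in WT and 86.8 in cKO. It was followed by shared peaks 40504, 53264 and 71847 bp away, with WT percentiles of 66.7, 51.0 and 61.3 and cKO percentiles of 62.8, 47.9 and 49.8. A narrow WT peak of 499 bp, 21325 bp away, lay inside a cKO peak of 1012 bp, with percentiles of 18.7 and 19.8. The 3 unshared peaks, 10287, 24795 and 45528 bp from the TSS, stood at 15.8, 34.5 and 34.9.

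By the authors' assignment S1pr1 had no WT peak of the promoter class, because the peak over its TSS carries the name of the predicted gene Gm9889. That WT peak, at 115711592 to 115716038, was 4447 bp wide and covered 3481 of the 4640 bp of the S1pr1 gene together with 966 bp before its start. It stood at percentile 60.6. In cKO the same region was called as 2 peaks with 597 bp between them. The one over the TSS, 2471 bp wide, was again assigned to Gm9889 and stood at percentile 46.8, while the other, 2107 to 3133 bp inside the gene at 115711939 to 115712965, was assigned to S1pr1 and stood at 26.5. This last peak is the only cKO peak of the set whose WT partner carries another name. Both libraries therefore had called peaks over the S1pr1 start. Over the whole lists 65 WT peaks were overlapped by more than 1 cKO peak, and those at the S1pr1 start and the internal Klf3 start were among them.

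S1pr4, on the minus strand of chromosome 10, had 1 peak per library. It lay inside the gene, from 335 to 1099 bp past the TSS in WT and from 330 to 1283 bp in cKO and covered 32.1% of the gene in WT. The percentiles were 50.2 and 48.2. The promoter class of this peak follows from its distance, since no peak covered the bases before the TSS that are printed above.

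Ccr7, on the minus strand of chromosome 11, had most peaks of the set, 14 in WT and 8 in cKO. The WT peak over the TSS, 99154236 to 99155826, stood at percentile 71.0. Its cKO partner, 99154376 to 99155955, stood at 50.0. In WT 3 peaks upstream of the start came close to it, beginning 7512, 15593 and 33929 bp away, at percentiles 68.7, 70.1 and 64.4. Their cKO partners stood at 56.1, 63.2 and 55.4, each above the cKO promoter peak. Downstream of the gene, a 2400 bp peak 22354 bp from the TSS stood at 59.1 in WT and its 2198 bp partner at 58.6 in cKO. The region 29813 bp from the TSS was 1350 bp wide at percentile 56.8 in WT and 500 bp wide at 27.9 in cKO. A peak across the 3′ end of the gene was shared at 44.7 and 48.2.

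Within the Ccr7 gene, 2 WT peaks beginning 1770 and 3923 bp after the TSS, 428 bp apart, were overlapped by a single cKO peak of 2603 bp, the reverse of the pattern at S1pr1 and Klf3. The nearer one lay wholly under it, while the other shared 357 of its 1026 bp. Over the whole lists 161 cKO peaks were overlapped by more than 1 WT peak. The WT peaks stood at 19.1 and 20.9 and the cKO peak at 27.7. The 5 unshared Ccr7 peaks lay 7064 and 18052 bp downstream and 13005, 22013 and 25154 bp upstream of the TSS, between shared peaks on either side. They were 451 to 767 bp wide, and their percentiles were 25.4, 19.2, 46.0, 1.70 and 25.3, all below those of the shared peaks upstream of the gene. The peak 13005 bp upstream was another of the 3 unshared peaks of the set that were narrower than any cKO peak. The remaining one, of 395 bp, was the S1pr1 peak 10287 bp from the TSS. Over the whole WT list, 2844 of 15127 unshared peaks and 163 of 19313 shared ones were that narrow. Such narrow unshared peaks are thus not particular to these genes.

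Read together, the unshared peaks of the 7 genes were mostly weak and narrow. The 31 shared WT peaks had a median percentile of 59.0 and a median width of 1166 bp, and the 16 unshared ones 34.7 and 635 bp. Over the whole WT list the medians were 71.4 and 1213 bp for shared and 25.3 and 662 bp for unshared peaks. By bins of the WT score, the lower 5 bins held 7 shared and 14 unshared peaks, and the upper 5 held 24 shared and 2 unshared ones. Over all WT peaks the same counts were 4158 and 13062 in the lower bins, and 15155 and 2065 in the upper ones, so unshared peaks lay mostly in the lower bins there too. No peak of the set fell in the highest bin. WT peaks of the same bins were shared at 56.6% on average, and of the same bins and class at 56.0%, both inside the interval of the 66.0% found. Of the promoter class 11 of 13 peaks were shared, against 74.3% of all WT promoter peaks. Outside it the count was 20 of 34, against 41.4%.

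**Figure D2:**
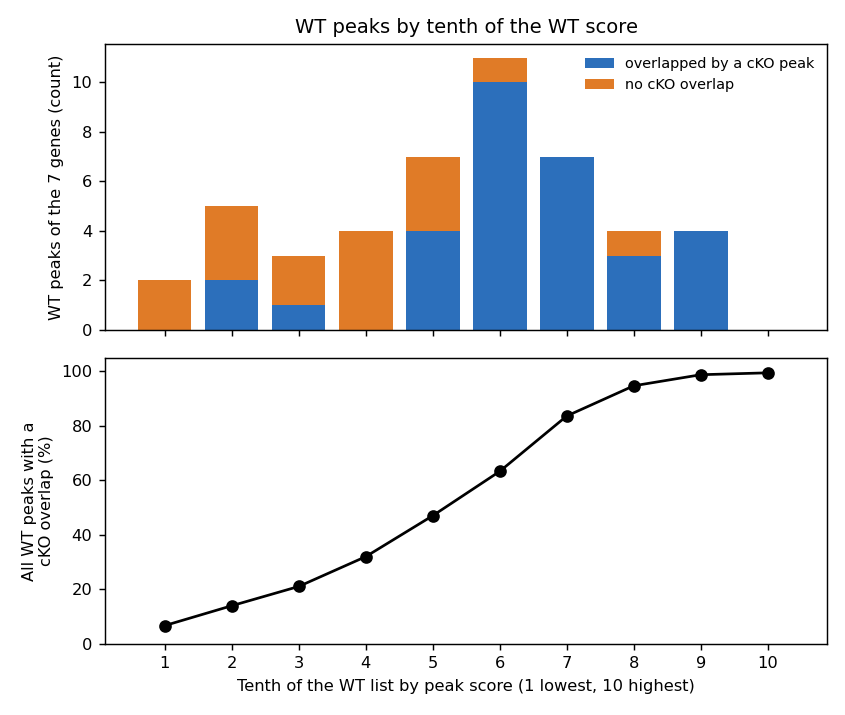
Upper panel, number of WT peaks of the 7 genes in each of 10 equal bins of the WT list by score (x axis, 10 the highest), split by overlap with a cKO peak. Lower panel, share of all WT peaks in that bin with a cKO overlap (%), which runs from 6.68% to 99.5%. Of the 16 unshared peaks, 14 lie in bins 1 to 5.

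The lists differ in length, so percentiles within them show no change. A comparison that removes the difference in list length was made among the 19151 regions called in both libraries that were each other's best overlap. It ranked the same regions once by WT and once by cKO score. Sequencing depth is unknown and was not accounted for. This comparison was added after the data were seen. The 7 genes had 30 such regions. The cKO percentile was the higher one in 23 of them, against 48.1% of all regions, and the median difference was 14.8 points, against -0.38 over all regions and 0.56 for regions of the same bin and class. Both classes took part, with 8 of 11 promoter regions (43.9% of all such regions) and 15 of 19 others (54.2%). Over all regions the difference had an SD of 12.8 points, and its central 95% ran from -25.2 to 27.4.

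All 5 regions of S1pr1 stood higher in cKO, by 14.2 to 24.4 points. S1pr4 stood 25.4 points higher and Klf6 14.0. The 3 Klf13 regions stood 3.15 to 19.2 points higher, with the main promoter at percentile 74.0 in WT and 93.2 in cKO. For Ccr7 the difference was positive in 6 of 8 regions, with 30.3 points at the 3′ end of the gene, while its promoter was at 49.1 in WT and 48.6 in cKO. Klf2 showed the widest range. Its regions 30943 and 45916 bp downstream stood 34.6 and 33.3 points higher in cKO, at or below which lay 99.2% and 99.0% of all regions. Its promoter went from 77.1 in WT to 71.9 in cKO, and the region 24440 bp downstream from 42.9 to 28.0. Only Klf3 had more regions with a lower cKO percentile, 3 of 5. The largest fall was in the intronic one, from 28.8 in WT to 11.2 in cKO. Another of the 3 was the region at the internal Klf3 start, at 19.6 in WT and 8.57 in cKO. It was called as 2 cKO peaks and paired only with that of 755 bp. The cKO peak of 739 bp scored higher (percentile 24.0 of the cKO list against 10.1) but was not ranked. The direction in that region may therefore depend on the pairing. Of the 30 differences, 3 lay above the central 95% of all regions and none below it. The regions of a gene share a locus and a library pair and are not replicates.

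**Figure D3:**
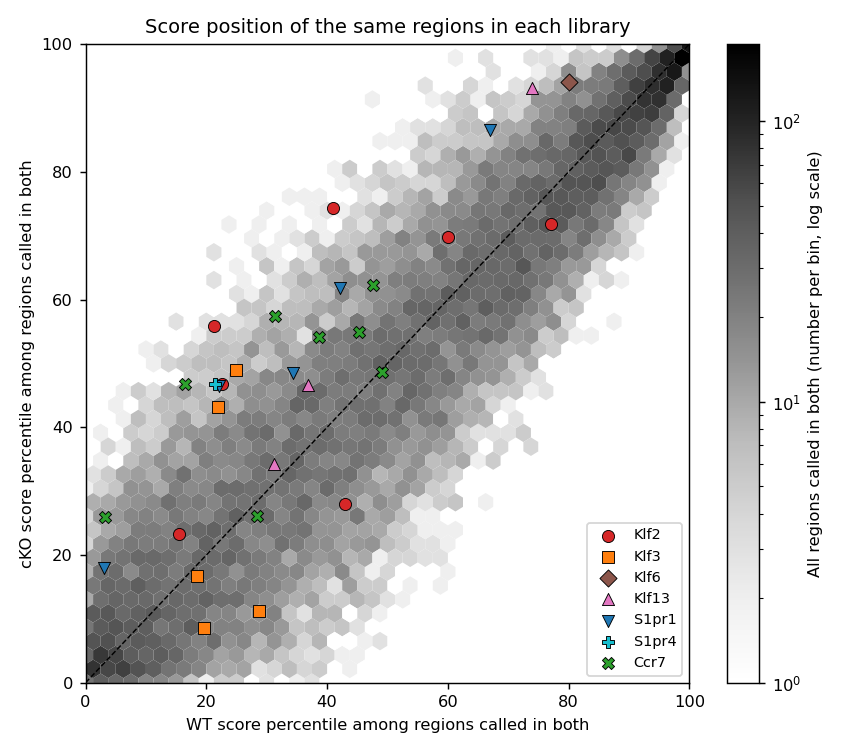
Score percentile of each region called in both libraries, WT on the x axis and cKO on the y axis, both among the same 19151 regions. Grey shading gives the number of regions per bin on a log scale, coloured marks are the 30 regions of the 7 genes, and the dashed line marks equal percentiles. Above the line lie 23 marks.

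The authors' list gives 1 gene per peak, so the surroundings of each start site were also examined whatever the assigned name. Within 50 kb of the 7 starts there were 78 WT peaks, of which 53 were shared (67.9%, against 56.1% of all WT peaks), and 54 cKO peaks, all on a WT peak (97.6% of all cKO peaks). Of these, 35 WT peaks carried other names and 24 of them were shared. Upstream of Klf2, 4 peaks assigned to the predicted genes Gm39197 and Gm10282, between 14992 and 46802 bp before the TSS, were shared, so that within 50 kb 11 of 12 WT peaks had a partner and the peak 11425 bp downstream remained the exception. Before Klf6, a region of 2014 bp from 14644 to 16657 bp upstream, assigned to 1700016G22Rik, stood at percentile 90.4 in WT and 84.3 in cKO, in WT above the Klf6 promoter itself. The 3 regions assigned to Gm9889 between 13373 and 44299 bp before the S1pr1 start were shared. So were all 5 such regions around Ccr7, assigned to Tns4 or Smarce1. Around S1pr4, 5 of 13 such WT peaks were shared, among them those of Ncln and Gna11. The 4 of Celf5 and the pair assigned to Gna15 were not. A peak in exon 6 of Gna15, assigned to the predicted gene Gm25595, was shared.

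Genes that act with the set were counted from 4 lists, by the peaks assigned to them. A gene without an assigned peak may still hold one under another name, as at the S1pr1 start. Of 13 other KLF genes 8 had a WT peak, and 9 of their 13 WT peaks were shared (69.2%, 42.4 to 87.3). Klf7 shared 2 of 3, the strongest at percentile 99.0 in WT. Klf8 had 3 WT peaks, the best at 49.3, and no cKO peak. Klf12 had no assigned WT peak and 1 cKO peak, which lay on a WT peak assigned to another gene. The 4 genes without any assigned peak were Klf14, Klf15, Klf16 and Klf17. For sphingosine 1-phosphate signalling, 15 of 19 WT peaks of 10 genes were shared (78.9%, 56.7 to 91.5). Cd69, whose protein pulls S1pr1 from the cell surface, shared 2 of 4, and Dnm2, a dynamin that takes up receptors, all 3. Plpp3, a lipid phosphatase, had 1 WT peak at percentile 8.34 and no cKO peak. The kinase genes Sphk1 and Sphk2 and the exporter gene Spns2 had no assigned peak in either library. These 3, like Klf12 and the 4 KLF genes without an assigned peak, were named after their values were seen.

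Of 18 genes of lymph node entry and trafficking 16 had a WT peak, and 42 of 60 peaks were shared (70.0%, 57.5 to 80.1). Cxcr5, the follicle homing receptor, shared 5 of 8, and Dock2, which drives Rac in migrating lymphocytes, 6 of 8. Ccl21a, a Ccr7 ligand made by stromal cells, had 1 WT peak, at percentile 13.5, and no cKO peak. Among 12 factors that act upstream of Klf2 or Ccr7, 45 of 69 peaks were shared (65.2%, 53.4 to 75.4). Foxp1, which opposes Foxo1, gave 22 of its 31, and Stat5b, which carries IL-2 signals, 6 of 8. Foxo1 itself, named after its values were seen, shared 1 of 3 peaks, with a promoter peak in both libraries. Mef2c, an activator of Klf2 in other cells, had 3 WT peaks, the best at 42.4, and no cKO peak. The intervals of the KLF and upstream lists include the 56.1% of all WT peaks, those of the other 2 lie just above it. WT peaks of the same score bins were shared at 59.4%, 70.2%, 61.5% and 51.0% on average in the 4 lists, inside the interval of 3 lists and below that of the upstream factors. No cKO peak of the 4 lists lacked a WT overlap.

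**Figure D4:**
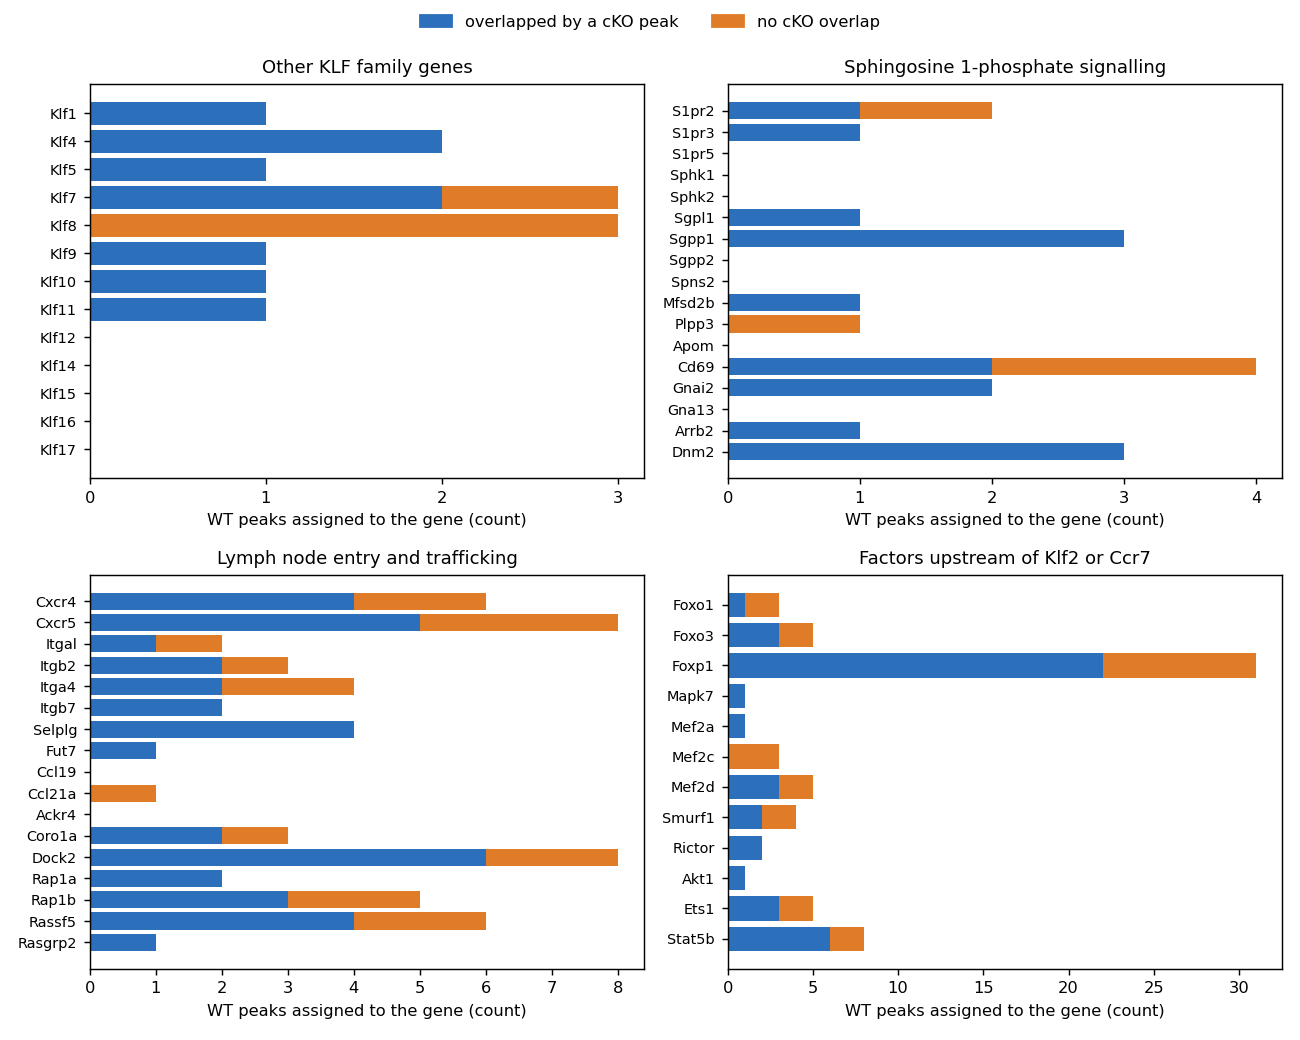
Number of WT peaks assigned to each gene (x axis) in 4 lists of related genes, with 1 gene of the lymph node list not shown, split into peaks with (blue) and without (orange) a cKO overlap. Foxp1 has most peaks, with 22 of 31 shared, and Klf8, Plpp3, Ccl21a and Mef2c have WT peaks but none in cKO.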

How the data were processed

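Open chromatin was measured by ATAC-seq in 2 libraries, 1 WT and 1 cKO, grouped by sample titles. Per the submitters' processing notes, the build was mm10 and the tools included MACS2, BWA, FastQC and Trimmomatic. For versions, settings, read filters, any Tn5 shift and the program that assigned genes, the labels state nothing (not given in the sources used here). The authors called peaks per library. The deposited score per peak has no stated scale (lowest values 1.31 and 1.34) and was used only as a rank within its list. Positions, widths and distances were deposited in bp and are 1-based.

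Overlap required 1 bp, and the code was compared with bedtools 2.31.1 over all 34440 and 19680 peaks, with 0 differences; it was also tested on simulated data. Intervals are Wilson 95% intervals. Limits for counts of 0 use 3 counts. Both cover counting error only. Promoter letters come from RefSeq (GRCm38.p6). Named were the 7 genes, Tkt, in each list up to 2 genes with most WT peaks and up to 2 without a cKO peak, and up to 2 genes of like counts per member. The genes and lists were chosen with earlier results of these data known. S1pr4 is printed as a contrast. The ranking among regions called in both lists, and the count of regions called as several peaks, were added after the data were seen. Single results of 2 list genes are not reported here, though the list counts include them. Alternatives changed the overlap rule, score, width, list length, distance and members. Python 3.11.15 and pandas 2.3.3 were used.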

Additional observations from a re-analysis of the deposited data

How the results depend on the processing

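No paired analysis was possible because WT and cKO are 1 library each, and for the same reason no replicate could be left out. The share of the set's WT peaks with a cKO overlap, 66.0%, became 50.0% when peaks under their list's median score were dropped (57.0% over all peaks then), 84.8% when the WT list was cut to the length of the cKO list (83.0% over all peaks then) and 78.9% within 10 kb of the TSS. It was 63.8% with the stricter overlap, 66.0% with a 200 bp tolerance, 70.5% among wider WT peaks, 67.9% within 50 kb and 66.7% without Ccr7. For the 10 kb, overlap and width settings no share over all peaks is at hand, so those values have no background. Of all WT promoter peaks, which lie near a TSS, 74.3% were shared. The share of cKO peaks on a WT peak was 93.8% with equal numbers of peaks (83.0% over all cKO peaks then) and 100% in the others (99.4% over all cKO peaks above the median score). Under the score, 10 kb and 50 kb settings the WT peaks numbered 26, 19 and 78, and the cKO peaks 13, 16 and 54. Above the median scores S1pr4 had no shared peak. Within 10 kb S1pr1 had no WT peak under its own name. Each of these settings leaves 6 of 7 genes. The shared WT peak over the S1pr1 start was assigned to Gm9889 and is not counted there. The number of genes with a shared peak was 7 with the other overlap rules, equal numbers of peaks, wider WT peaks and the 50 kb window. Unknown depth limits every missing peak.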

Other observations

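Genes of like pattern were sought by the same numbers of WT peaks, cKO peaks and shared WT peaks, and then by the percentile of the strongest WT peak. Predicted gene models were passed over. No other gene had the counts of Klf2 (8, 7 and 7), Klf3 (9, 6 and 5) or Ccr7 (14, 8 and 9). Msi2 alone matched S1pr1 (8, 6 and 5), with its strongest peak at percentile 81.2 against 81.5. Klf13 shared its counts with 69 genes, of which Rph3al and Vangl2 came closest, at 85.4 and 85.3 against 85.4. For Klf6 there were 1333 such genes, led by Zfp335 and Bmpr2, and for S1pr4 5065, led by Rhd and Slc5a6.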
